A study of Rattus norvegicus with 6 samples.

Results

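Sulfotransferases and UDP-glucuronosyltransferases, the enzymes that attach sulfate and glucuronic acid to small molecules, were examined in the colon of azoxymethane-treated rats through 10 genes: Sult1a1, Sult1b1, Sult1c2, Sult1c2a, Sult1d1, Sult2b1, Ugt1a1, Ugt2b17, Ugt2b35 and Ugt2a3. Probes were assigned to a gene when the accession of the probe matched that gene, by its current symbol or a synonym, among RefSeq genes. Of the 30367 probes on the array, 12 read 9 of the 10 genes, and no probe was matched to Ugt1a1. Of these 12 probes, 7 were in the normalized table of 23997 probes that the authors deposited and were tested, and they read 5 of the genes. RefSeq holds Ugt2b17 only as a synonym, and of both Ugt2b15 and Ugt2b1, so that a probe of each was counted for it and is given under its current symbol.

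Colon RNA came from male rats, 3 of the S strain (S1 to S3) and 3 of the S.LEW congenic strain (C1 to C3), and each was read on 1 Agilent array in a single color. The S rat is the inbred, hypertensive Dahl salt-sensitive strain SS/Jr, and the congenic strain, S.LEW(10)x12x2x3x5, carries a short segment of Lewis chromosome 10 on the S background. Both strains ate a low salt diet and were injected with azoxymethane (AOM), a colon carcinogen, at 15 mg per kg in 2 weekly doses from 6 weeks of age, and the colons were taken at 30 weeks. There was no group without AOM, so the values describe a difference between strains under the carcinogen and not a response to it. The samples are labelled tumor-induced, but the labels do not say how much tumor each RNA held, and the part of tumor tissue in the values was not tested.

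Conjugation makes lipid-soluble molecules such as drugs, steroids, bile acids and dietary phenols more soluble in water, so that they can be exported from the cell and excreted. Sulfotransferases are cytosolic enzymes that take the sulfate from PAPS, an activated form of sulfate, and glucuronosyltransferases are enzymes of the endoplasmic reticulum that take glucuronic acid from UDP-glucuronate. In the gut both families are known mainly from the epithelium, where they act on what is absorbed, and sulfation is also known to turn some carcinogens into reactive forms.

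Of the 7 tested probes, 4 were higher in the S.LEW congenic strain by at least 2-fold with an unadjusted p under 0.05 from limma, the combination that is named called below, and none was called lower. Over all probes, 3.23% were called higher and 2.34% lower. The 4 probes read 3 genes, Sult1a1, Sult1c2 and Sult1c2a, and their folds lay between 2.85 and 5.65. None of the 23997 tested probes reached an adjusted p under 0.05, although 3115 had an unadjusted p under 0.05, and the lowest adjusted p among the members was 0.194. All congenic rats were above all S rats at 6 of the 7 probes, a separation found at 12.4% of all probes in that direction and at 5.33% in the other. An exact permutation test of 3 rats against 3 cannot give a two-sided p below 0.10.

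The promoters of the 3 called genes are shown because these genes differed in the same direction. Each window runs from 250 bases before to 50 bases after the start of the gene, on the gene's own strand, in RefSeq GRCr8. That of Sult1a1 is chr1:190706063-190706362 on the minus strand, that of Sult1c2 is chr9:7436731-7437030 on the plus strand, and that of Sult1c2a is chr9:7103153-7103452 on the minus strand. Capitals mark the only match found to the motifs searched.
Sult1a1: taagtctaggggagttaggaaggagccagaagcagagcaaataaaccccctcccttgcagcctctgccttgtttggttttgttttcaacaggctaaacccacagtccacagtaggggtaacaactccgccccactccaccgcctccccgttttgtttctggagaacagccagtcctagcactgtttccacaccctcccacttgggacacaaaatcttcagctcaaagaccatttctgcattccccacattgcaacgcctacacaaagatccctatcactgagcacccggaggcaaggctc
Sult1c2: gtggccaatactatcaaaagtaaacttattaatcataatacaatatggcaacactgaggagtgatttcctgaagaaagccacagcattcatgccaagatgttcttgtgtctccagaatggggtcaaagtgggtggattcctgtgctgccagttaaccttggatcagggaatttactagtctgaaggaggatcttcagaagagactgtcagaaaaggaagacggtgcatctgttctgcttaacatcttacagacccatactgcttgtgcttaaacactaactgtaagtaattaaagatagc
Sult1c2a: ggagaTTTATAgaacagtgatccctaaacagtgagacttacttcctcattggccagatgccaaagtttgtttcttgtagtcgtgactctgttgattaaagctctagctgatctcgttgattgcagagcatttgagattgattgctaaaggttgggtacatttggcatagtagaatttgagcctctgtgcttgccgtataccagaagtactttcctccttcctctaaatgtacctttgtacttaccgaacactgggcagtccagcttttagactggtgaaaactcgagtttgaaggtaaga
The motifs were searched on both strands of the windows of Sult1a1, Sult1b1, Sult1c2, Sult1c2a and Ugt2b15. They were TATAAA (held by 14.2% of 33469 rat promoter windows of this length), the HNF1 core GTTAAT (7.45%), the HNF4 site CAAAGTCCA (0.391%), the CDX site CAATAAA (4.57%), the AhR core GCGTG (29.7%) and the antioxidant response core TGACNNNGC (4038 windows). The single match was TATAAA on the minus strand of the Sult1c2a window, beginning at base -245 from the start. Only exact matches were counted, with N as any base, so the search cannot show that a site is absent. Aligned in pairs with gaps, the 5 windows had identical bases over 49.0% to 54.7% of their length. The windows of Sult1c2 and Sult1c2a, which stand close together on chromosome 9, had 53.7%. Pairs of genes on different chromosomes had more, 54.7% for Sult1b1 with Sult1c2a and 54.3% for Sult1c2 with Ugt2b15. No level for unrelated windows was computed.

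Sult1a1, a phenol sulfotransferase that also acts on estrogens, was read by probe A_64_P011779. Its log2 signal was 10.98, 11.07 and 11.09 in C1, C2 and C3, and 9.28, 9.86 and 9.48 in S1, S2 and S3. The congenic rats lay close together and all of them stood above the highest S rat, by a gap of 1.12 on the log2 scale. The means were 11.05 ± 0.06 (SD, n = 3) and 9.54 ± 0.29 (SD, n = 3), and the log2 fold change, congenic over S, was 1.51 (SE 0.21, adjusted p = 0.194 from limma), or 2.85-fold. With each rat left out in turn it stayed between 1.38 and 1.67. Of all probes, 1.12% had a higher fold change in that direction.

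The Sult1c enzymes act on small phenols. Sult1c2 was read by probe A_64_P001334, with a log2 signal of 9.29, 9.51 and 9.12 in C1, C2 and C3, and of 8.38, 7.57 and 7.23 in S1, S2 and S3. The strains did not overlap, and S1 was the S rat nearest to the congenic rats. The means of 9.31 ± 0.20 (SD, n = 3) and 7.72 ± 0.59 (SD, n = 3) gave a log2 fold change of 1.58 (SE 0.32, adjusted p = 0.228 from limma), or 3.00-fold. It was 1.91 without S1 and 1.34 without S3.

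Sult1c2a had the largest differences among the members, and 2 probes read it. Probe A_44_P141963 had a log2 signal of 10.77, 10.86 and 10.21 in C1, C2 and C3, and of 8.76, 8.36 and 7.83 in S1, S2 and S3. Probe A_44_P958682 had 9.08, 9.37 and 8.50 in C1, C2 and C3, and 6.80, 6.59 and 6.07 in S1, S2 and S3. At both probes C3 was the lowest congenic rat and S3 the lowest S rat, and the gap between the strains was 1.45 and 1.70 on the log2 scale. The log2 fold change was 2.29 (SE 0.31) at the first probe and 2.50 (SE 0.31) at the second, each with an adjusted p of 0.194 from limma, or 4.90-fold and 5.65-fold. With a rat left out it ranged from 2.05 to 2.51 and from 2.29 to 2.74. No probe sequences were given. Sult1c2 and Sult1c2a are related genes, and their cluster holds further protein-coding genes without a matched probe, Sult1c2al1 among them. Whether a probe also read another gene of the cluster was not tested.

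**Figure D1:**
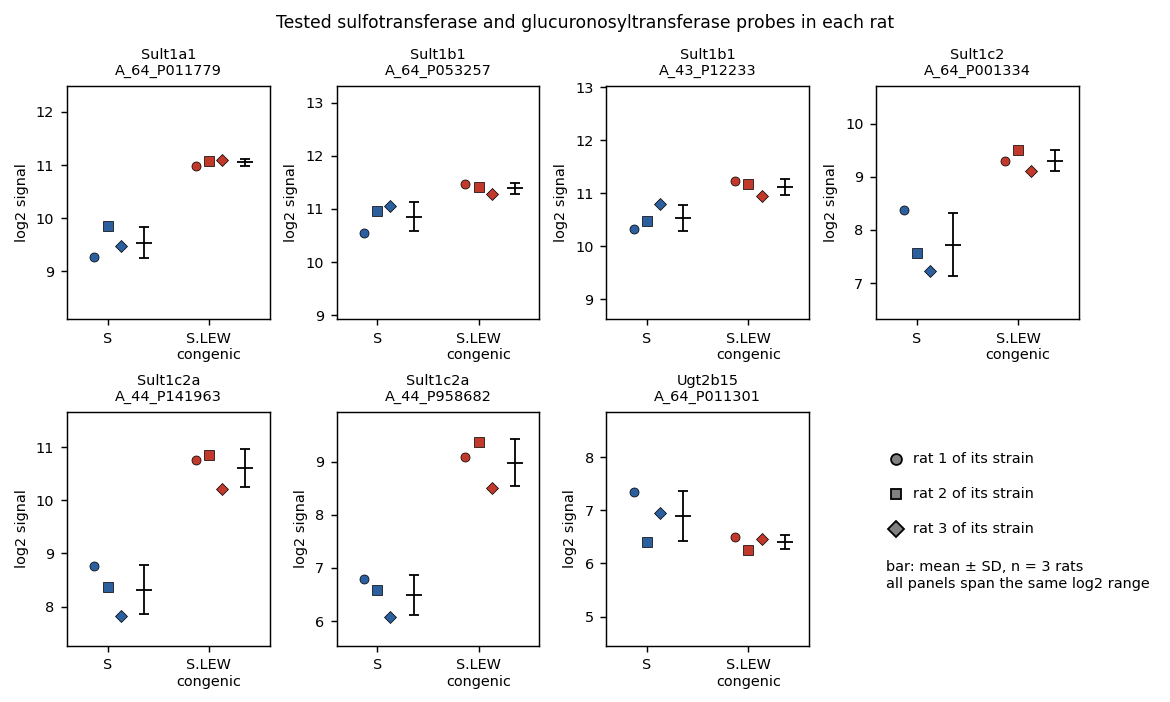
Deposited log2 signal of each tested member probe in each rat, 1 panel per probe, with S in blue and S.LEW congenic in red. Symbols mark rat 1, 2 and 3 of a strain and bars give the mean ± SD of 3 rats. The congenic rats lie above all S rats in 6 of the 7 panels, and only the strains of Ugt2b15 overlap.

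Sult1b1, which sulfates thyroid hormones and small phenols, had differences of the same direction but under 2-fold at both of its probes. At probe A_64_P053257 the log2 signal was 11.47, 11.42 and 11.28 in C1, C2 and C3, and 10.54, 10.96 and 11.05 in S1, S2 and S3. The log2 fold change was 0.54 (SE 0.20, adjusted p = 0.361 from limma). At probe A_43_P12233 it was 0.59 (SE 0.20, adjusted p = 0.345 from limma), from 11.23, 11.17 and 10.96 in C1, C2 and C3 against 10.32, 10.47 and 10.80 in S1, S2 and S3. The strains did not overlap at either probe, but only 0.22 and 0.16 on the log2 scale separated the lowest congenic rat from the highest S rat, and neither probe was called. The unadjusted p was 0.036 and 0.025, and at the first probe it rose above 0.05 without C1, C2, C3 or S1 and at the second without C1, C2 or S1.

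Among the glucuronosyltransferases of the set, only Ugt2b15, a steroid-conjugating enzyme, had a probe in the normalized table. Its log2 signal at probe A_64_P011301 was 6.49, 6.26 and 6.46 in C1, C2 and C3, and 7.35, 6.41 and 6.95 in S1, S2 and S3. The strains overlapped, because S2 lay among the congenic rats while S1 and S3 lay above them. The log2 fold change of -0.50 (SE 0.27, adjusted p = 0.449 from limma) was not called, and an exact two-sided permutation test gave p = 0.30. It was -0.27 without S1, and -0.74 without S2, where the unadjusted p was 0.0094 but the difference stayed under 2-fold.

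The remaining probes of the set lay outside the normalized table. Sult1d1, a sulfotransferase known from rodents, Sult2b1, the cholesterol sulfotransferase, and the glucuronosyltransferases Ugt2b35 and Ugt2a3 were each read by 1 probe that was not well above background on any of the 6 arrays. Their quantile-normalized log2 signals in the scanner files lay between 2.13 and 4.43, and at this level they give only an upper bound, with no order between the strains and no fold. Ugt2b1, the other gene with Ugt2b17 as a synonym, was well above background on the array of C3 alone, at a spot described in the closing section. Ugt1a1, the bilirubin-conjugating enzyme, could not be followed. In RefSeq all 8 Ugt1a genes share one end, so a probe in the shared part could not tell them apart.

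**Figure D2:**
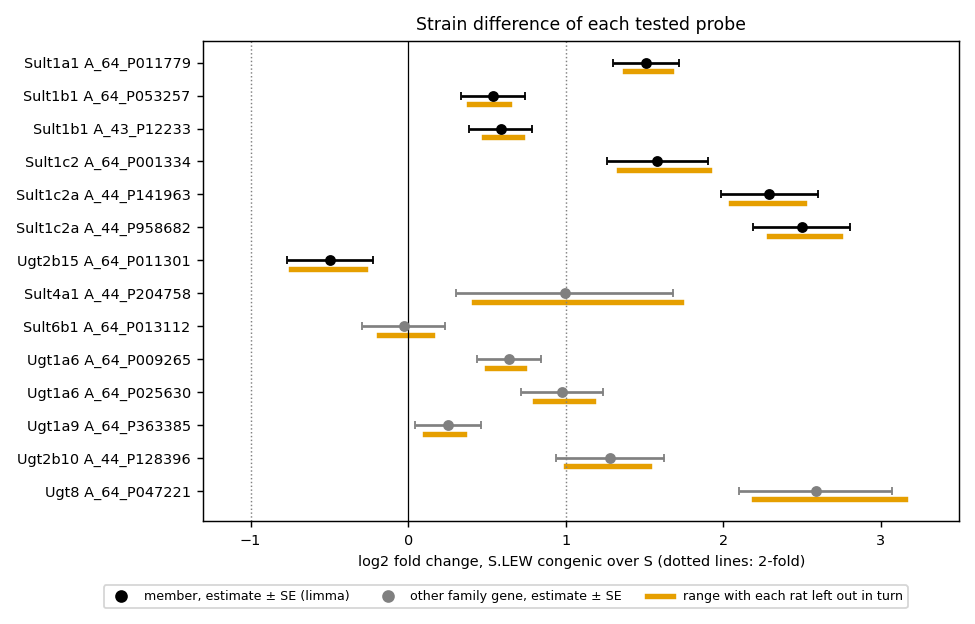
Log2 fold change, S.LEW congenic over S, of each tested probe of the member genes (black) and of other genes named Sult or Ugt (grey), with SE from limma, and the range with each rat left out in turn (orange). Sult1a1, Sult1c2 and Sult1c2a stay beyond the dotted line at 2-fold whichever rat is left out, while Sult1b1 stays between 0 and that line and Ugt2b15 below 0.

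Beyond the members, 33 other rat genes are named Sult or Ugt, of which 14 had a probe on the array and 6 were tested. Their median log2 fold change was 0.82, against 0.03 over the 12418 named genes tested, each by its brightest probe. Of the 6 genes, 2 were called higher and none lower, where 3.79% of all named genes were called higher and 2.62% lower. Ugt2b10, a glucuronosyltransferase, had a log2 signal of 10.06, 9.43 and 8.99 in C1, C2 and C3, and of 7.75, 8.52 and 8.36 in S1, S2 and S3, a log2 fold change of 1.28 (SE 0.34, adjusted p = 0.276 from limma) without overlap. With the mean of the epithelial markers subtracted, as described below, it was 0.67 and no longer called. It stands in the same cluster of genes on chromosome 14 as Ugt2b15, which was not called. The 2 probes of Ugt1a6, an enzyme for simple phenols, had log2 fold changes of 0.64 (SE 0.20) and 0.98 (SE 0.26), also without overlap and just under 2-fold at the second probe. That probe was called higher under 6 of 18 alternatives, at 1.32 within the slide that held both strains, 1.23 with array weights, 1.07 without C2, 1.06 without C3 and 1.18 without S2. Sult4a1 had 0.99 (SE 0.69) with overlapping strains and was not called, but it was 0.42 without S1, 1.73 and called without S2, and 1.26 and called with array weights. Ugt1a9 had 0.25 (SE 0.21) and Sult6b1, whose probe cleared background on 1 of the 3 congenic arrays, had -0.029 (SE 0.26), and neither was called. Whether the probes of Ugt1a6 and Ugt1a9 lie in the end that all Ugt1a genes share, and so also read other Ugt1a genes, was not tested.

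Ugt8 bears the family name but is a ceramide galactosyltransferase, which makes galactosylceramide. Its log2 signal was 7.34, 7.29 and 7.46 in C1, C2 and C3, and 5.91, 4.42 and 3.99 in S1, S2 and S3. The congenic rats lay within 0.2 of each other and far above S2 and S3, with S1 between. The probe was well above background on all 6 arrays, but the signals of S2 and S3 were low, so the size of the change is uncertain. The log2 fold change was 2.59 (SE 0.49, adjusted p = 0.210 from limma), and it was 3.16 without S1. Background correction by normexp gave 1.24 and array weights gave 3.34, and it was called under all 18 alternatives. Gal3st1, the Golgi enzyme that sulfates galactosylceramide to sulfatide, was also called higher, with a log2 fold change of 1.05 (SE 0.20, adjusted p = 0.210 from limma), at 9.02, 8.81 and 8.67 in C1, C2 and C3 against 7.89, 7.92 and 7.52 in S1, S2 and S3. It was under 2-fold without C1 (0.96) and without S3 (0.93).

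None of the called member genes lies on chromosome 10, which holds the Lewis segment. In GRCr8 Sult1a1 is on chromosome 1, and Sult1c2 and Sult1c2a are on chromosome 9. Sult1c2a and Sult1c2 stand in a cluster that ends with Sult1c3, whose probe was well above background on 1 array only. The nearest genes with tested probes outside the cluster, Rab5a and Slc5a7, had log2 fold changes of -0.08 at each of 2 probes and of 0.89 and were not called. On chromosome 14, Sult1d1 and Sult1b1 stand beside the Ugt2 genes, and among the tested genes of that cluster only Ugt2b10 was called.

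The supply of sulfate gave no common direction. Of 12 tested genes of sulfate activation, transport and desulfation, 1 was called higher and none lower, with a median log2 fold change of 0.20. Over all named genes 3.79% were called higher and 2.62% lower, which also applies to the lists that follow. The called gene was Bpnt1, the phosphatase that removes the PAP left after each sulfation. Its log2 signal was 11.26, 11.35 and 10.99 in C1, C2 and C3, and 9.68, 10.57 and 10.24 in S1, S2 and S3, a log2 fold change of 1.04 (SE 0.27, adjusted p = 0.276 from limma). It was under 2-fold without C2 (0.96) and without S1 (0.80). Papss2, which makes PAPS, had a log2 fold change of -0.47 (SE 0.19, adjusted p = 0.381 from limma), with all congenic rats below all S rats, and was not called. No probe was matched to Papss1.

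For glucuronidation, 1 of 6 tested genes of UDP-glucuronate supply and deglucuronidation was called higher and none lower, with a median log2 fold change of 0.43. Over all named genes these shares were 3.79% and 2.62%. Ugdh, the dehydrogenase that makes UDP-glucuronate, had a log2 signal of 12.49, 12.16 and 12.12 in C1, C2 and C3, and of 11.05, 11.27 and 11.08 in S1, S2 and S3. The strains were apart and the S rats nearly equal, and the log2 fold change was 1.12 (SE 0.19, adjusted p = 0.205 from limma). Gusb, the lysosomal β-glucuronidase that removes glucuronic acid, had -0.39 (SE 0.39, adjusted p = 0.634 from limma), with S2 below and S1 and S3 above all congenic rats.

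Among transporters that export conjugates, 2 of 8 were called higher and none lower, with a median of 0.48. They were Abcc3, with a log2 fold change of 1.25 (SE 0.44, adjusted p = 0.348 from limma), and Abcg2, with 1.20 (SE 0.47, adjusted p = 0.373 from limma). At each of them the nearest rats of the strains were close, 8.41 in C2 and 8.35 in S2 for Abcc3, and 8.90 in both C2 and S1 for Abcg2. Abcc3 was no longer called without C1, C3 or S3 (0.90, 1.27 and 0.93). Abcg2 was called with only 1 of the 6 rats left out, S1, at 1.71, and had 0.77 without S2. Of 17 tested regulators of conjugation genes, 4 were called higher and none lower, with a median of 0.68. These were the vitamin D receptor Vdr, with a log2 fold change of 1.23 (SE 0.40), the forkhead factor Foxa3, with 1.22 (SE 0.32), the bile acid receptor Nr1h4, with 1.22 (SE 0.24), and the fatty acid receptor Ppara, with 1.18 (SE 0.30). Their adjusted p values from limma were 0.333, 0.276, 0.223 and 0.275, and none of the 4 overlapped between strains. Over all named genes 3.79% were called higher and 2.62% lower, and 14.2% had every congenic rat above every S rat and 5.01% every one below. Nr1h4 was called whichever rat was left out. Foxa3 and Ppara were not called without S3 (0.92 and 0.99). Vdr was not called without C1, S1 or S3, where its unadjusted p from limma was 0.066, 0.060 and 0.067. Its log2 fold change was 1.07 and 1.03 without the first 2, and at the limit of 2-fold without S3. With the methods' t-test Vdr was not called either (unadjusted p = 0.057).

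Other conjugating enzymes were measured for comparison, again beside 3.79% of all named genes called higher and 2.62% called lower. Of 8 tested methyl, acetyl and amino acid transferases, 2 were called higher and none lower, with a median of 0.44. Nat2, an arylamine N-acetyltransferase, had a log2 fold change of 1.29 (SE 0.19, adjusted p = 0.197 from limma), and Inmt, an indolethylamine N-methyltransferase, had 2.20 (SE 0.44, adjusted p = 0.228 from limma). The probe of Inmt was well above background on only 2 of 3 congenic and 1 of 3 S arrays, so the size of its change is uncertain, and with normexp it was 0.59 and not called. Enzymes of the Golgi list sulfate glycans, lipids or proteins. The 25 tested Golgi sulfotransferases had a median of -0.04, with 1 called higher (Gal3st1) and 2 lower. The lower genes were Chst1, with a log2 fold change of -2.57 (SE 0.96, adjusted p = 0.361 from limma), and Chst10, with -1.26 (SE 0.47, adjusted p = 0.361 from limma), and at both of them the strains overlapped. Chst1 was called lower only with S2 left out among the 6 rats, at -3.74, and was -1.80 without S1. Chst10 was called with C3 or S2 left out and was -0.99 without S1. By the methods' t-test neither Chst1 nor Chst10 was called (unadjusted p = 0.099 and 0.090).

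**Figure D3:**
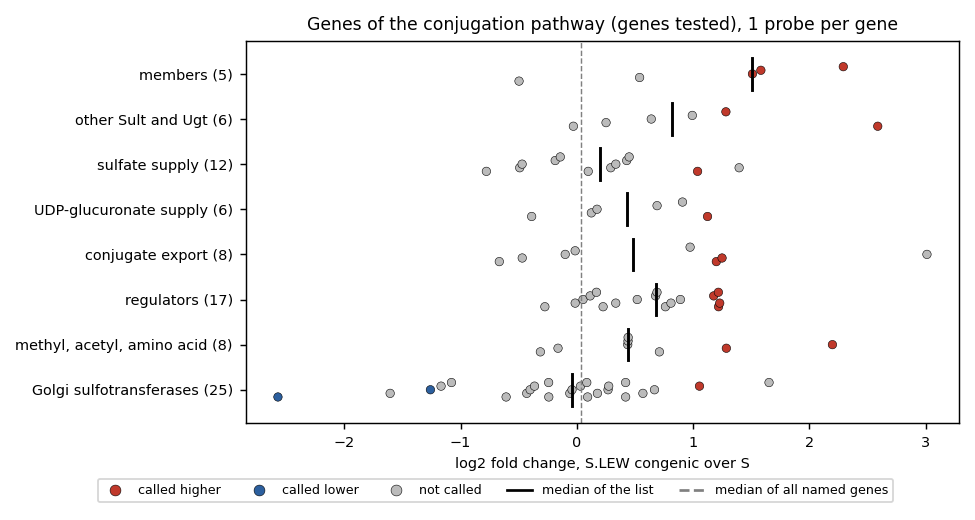
Log2 fold change, S.LEW congenic over S, of each tested gene of the conjugation lists, 1 point per gene (its brightest probe), with the number of genes tested in parentheses, list medians as black bars and the median of all named genes as a dashed line. The median is 1.51 for the members and 0.82 for the other Sult and Ugt genes, and -0.04 for the Golgi sulfotransferases.

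The arrays differed in ways that touch these values. Arrays with the same scan time were taken to share a slide, so slide membership is inferred and not labelled. By this, the arrays of C1 and all S rats shared 1 slide and those of C2 and C3 the other. Within the slide of both strains only C1 represents the congenic strain, and its spread is then taken from the S rats. Within that slide the log2 fold change was 1.44 for Sult1a1, 1.57 for Sult1c2, 2.45 and 2.59 for the probes of Sult1c2a, 0.62 and 0.70 for those of Sult1b1 and -0.41 for Ugt2b15, and the same 4 probes were called, where 1.85% of all probes were called higher and 0.779% lower. S2 stood apart from S1 and S3 over all probes (r = 0.900 and 0.937 across probes, against 0.967 to 0.976 with the congenic arrays). Without S2 the same 4 member probes were called, at 1.67 for Sult1a1, 1.50 for Sult1c2, and 2.31 and 2.55 for Sult1c2a, but the background rose to 9.99% called higher and 7.19% lower. S2 was the S rat nearest to the congenic rats at Sult1a1, and S1 was at the Sult1c probes.

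Cell type markers moved with the strains in part. In RNA of a whole tissue, fewer cells of a type and less RNA per cell cannot be told apart. The mean log2 signal of 13 epithelial markers was 13.14 to 13.62 in the congenic rats and 12.64 to 13.02 in the S rats, a difference of 0.62, with 1 of 13 called higher, none called lower, 8 with all congenic rats above all S rats and 1 with all below, against 14.2% and 5.01% of all named genes. The 11 tested surface colonocyte markers lay at 10.23 to 10.72 and 9.81 to 10.39 in mean, with 2 called higher and 1 lower. The 6 tested goblet cell markers lay at 10.37 to 10.86 and 9.85 to 10.52, with 1 called higher and none lower. The 8 tested crypt and cycling cell markers lay at 8.93 to 9.39 and 8.54 to 9.33, with none called. Lymphoid markers followed another pattern: the mean of 7 tested genes was 7.57 to 7.59 in the congenic rats and 7.71 in S2, but 12.04 in S1 and 11.83 in S3. Of these genes 5 were called lower and none higher, where 3.79% of all named genes were called higher and 2.62% lower. The mean of 8 smooth muscle markers was 15.38 to 15.62 in the congenic rats and 15.71 in S2, but 13.37 in S1 and 14.36 in S3, with 1 called higher and none lower. The mean of 7 enteric neuron and glia markers was 9.7 to 10.6 in the congenic rats and 10.6 in S2, but 8.6 in S1 and 9.3 in S3, with none called. Chst1 and Chst10 likewise had S2 among the congenic rats, and the part of these other cells in their values was not tested. Fat cell markers were also apart, with means of 7.38 to 8.20 in the congenic rats and 6.60 to 6.88 in the S rats and 2 of 6 called higher, and their part in the member values was not tested. The mean of 7 striated muscle markers was 7.15 to 7.73 in the congenic rats and 8.23 to 9.61 in the S rats, with 3 called lower and none higher. The 4 tested plasma cell markers had means of 6.46 to 7.77 in the congenic rats and 6.83 in S2, and of 8.91 in S1 and 9.31 in S3, with 2 called lower. The 9 macrophage markers lay at 8.86 to 9.37 in the congenic rats, 8.66 in S2, 9.78 in S1 and 9.83 in S3, with 2 called higher and 1 lower. The part of these markers in the member values was not tested either. Of 6 markers of liver, an organ rich in both enzyme families, 3 were in the table, at means of 4.90 to 5.64 and 5.09 to 5.49, and none was called. The called member probes kept all 3 S rats below the congenic rats, as the epithelial and fat cell marker means also did.

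**Figure D4:**
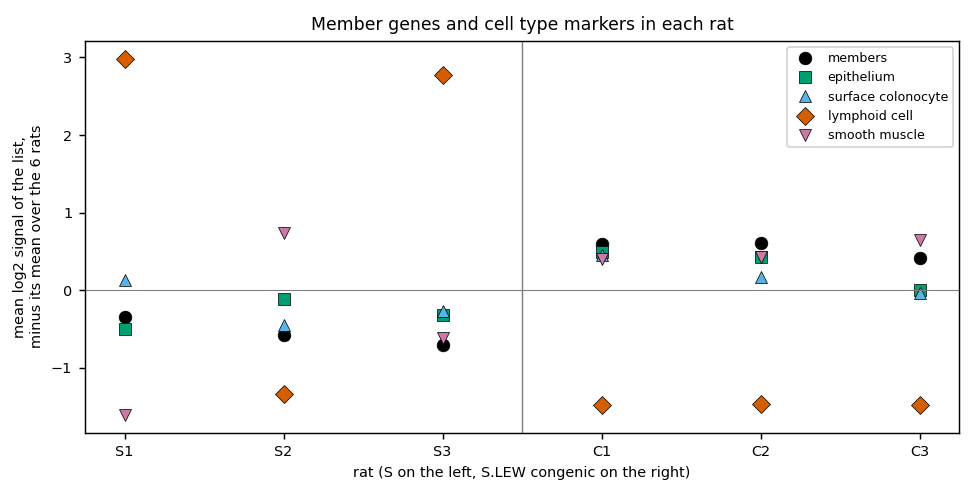
Mean log2 signal of the 5 tested member genes and of the epithelial, surface colonocyte, lymphoid and smooth muscle markers in each rat, each minus its own mean over the 6 rats. The members and the epithelial markers are higher in all congenic rats than in all S rats, while the lymphoid markers are high in S1 and S3 and the smooth muscle markers low in both.

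Set against the epithelial marker mean of the same rat, a scaling chosen after the data were seen, the median of all probes shifted from 0.01 to -0.60. On that scale Sult1c2a was still called higher at both probes, with log2 fold changes of 1.67 (SE 0.34) and 1.88 (SE 0.32), where 0.588% of all probes were called higher. Sult1a1 had 0.89 (SE 0.28) and Sult1c2 0.97 (SE 0.39), each under 2-fold, and the strains of Sult1c2 then overlapped through S1. Sult1b1 had -0.077 (SE 0.27) and -0.030 (SE 0.28) at its probes. Ugt2b15 had -1.11 (SE 0.39) and was called lower, as 16.5% of all probes were. Of the 13 further pathway genes called higher, only Ugt8 and Inmt were still called on that scale, at 1.97 and 1.58.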

How the data were processed

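Colon RNA of S and S.LEW congenic rats, 3 per strain, was measured on single-color Agilent arrays. The authors deposited the scanner output of each array, in which every spot has a background-corrected intensity from Agilent Feature Extraction 11.0.1.1 (per the submitters' processing notes), and a table of log2 values that the authors quantile-normalized, keeping probes detected in at least 3 of 6 samples. The deposited log2 values are the main values here. Intensity gave the background flags and the signals of probes outside the table. Between 73.8% and 80.9% of spots per congenic array and between 83.2% and 87.6% per S array were well above background. None was saturated. The median intensity before normalization was 594 in S1 and 445 in S3, against 219 in S2 and 214 to 291 in the congenic rats. The part of these differences in the values was not tested. The number of arrays limits the precision.

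Strains were compared over all 23997 probes by limma 3.58.1 (R 4.3.3), a linear model of strain alone with eBayes moderation, and p values were adjusted by Benjamini-Hochberg over the whole table. The fit was tested on simulated data. Of 30367 probes, 18005 were matched to 15168 RefSeq genes (GRCr8), and a gene in a list is represented by its brightest probe. All members and their probes are reported, with the other Sult and Ugt genes that were called, at most 4 called genes of each further list, and Papss1, Papss2, Ugdh and Gusb. Rab5a and Slc5a7, and the genes with values among the other Sult and Ugt genes that were not called, were named after their values were seen. Members and lists were chosen with earlier results of these data known. Replicate rats share a strain and nothing in the labels ties their numbers. The paper housed an S rat and a congenic rat together in each cage, but the labels name no cages, so cage pairs could not be modelled. Alternatives were other scalings and filters, the methods' t-test, array weights, slide and replicate blocks, kept outlier spots and each rat left out.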

Additional observations from a re-analysis of the deposited data

Results flagged for a closer look

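The probe of Ugt2b1, which lies outside the deposited table, had a quantile-normalized log2 signal of 10.14 on the array of C3 and of 2.24 to 3.39 on the other 5, where it was not well above background. On C3 the local background of this spot was marked by the scanner software as a population outlier, with a median of 101.5 and a pixel SD of 53.9, against medians of 35 to 48.5 and pixel SDs of 6.17 to 11.7 at the same spot on the other arrays. The processed signal of the C3 spot was 1024. Of the 1045 probes outside the table that were well above background on 1 array only, 2 had a signal there at least as high as that of this spot, itself included.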

How the results depend on the processing

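All 7 member probes kept their direction and their call, which needs both the p and the fold, under 17 of 18 alternatives. The unadjusted p alone crossed 0.05 for both probes of Sult1b1 with the replicate block (0.097 and 0.081), with the slide block (0.10 and 0.072) and within the slide (0.17 and 0.12), and for Ugt2b15 with array weights (0.0022) and without S2 (0.0094). The exception, subtracting the epithelial marker mean, was added after the data were seen and left 2 member probes called higher and 1 lower, with Sult1b1 at -0.077 and -0.030 and Ugt1a9 at -0.37. On that scale 141 probes in all were called higher, 3956 lower and 2 at an adjusted p under 0.05, with 2 further pathway genes higher and 13 lower. The main counts, 776 higher, 562 lower and 0 at an adjusted p under 0.05, with 13 further pathway genes higher and 2 lower, depended on the setting. The probes called higher were 359 with normexp (offset 50, on the median signal, added because the files used here give no mean signal), 515 with the methods' t-test, 2090 with array weights and 443 within the slide that held both strains, and 477 to 2397 with a rat left out. Those called lower were 342 with probes well above background on all 6 arrays, 178 with the methods' t-test, 1744 with array weights, 227 with the slide block, 187 within the slide, and 192 to 1725 with a rat left out. At an adjusted p under 0.05 there were 1 with 75th percentile scaling, 12474 with array weights, and 0 to 5553 with a rat left out, the highest without S2. Further pathway genes called higher numbered 7 with normexp, 21 with array weights and 7 to 21 with a rat left out. Those called lower were 4 with the 75th percentile or array weights, 0 with the methods' t-test, 1 with the slide block or within the slide, and 0 to 4 with a rat left out. With the replicate block 4 such genes were called lower, 794 probes higher, 744 lower and 0 at an adjusted p under 0.05, and the member calls stayed at 4 higher and 0 lower. Rats of the same number did not deviate together (r = -0.02, -0.13 and -0.06 across probes). Sult6b1 turned to 0.031 with normexp, 0.14 with array weights, 0.28 with the slide block and within the slide, and ranged from -0.18 to 0.15 with a rat left out (above 0 without C2 or S2). The causes were not tested. Signal over background limits the dim probes, for which no difference could be measured.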
